A study of Rattus norvegicus with 21 samples.

Results

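Heterotrimeric G proteins, the regulators that switch them off, and the enzymes that make and break cyclic AMP and cyclic GMP were examined on spotted 2-colour arrays of rat spinal cord. The members were taken by gene symbol: every probe whose symbol begins with Gna, Gnb, Gng, Rgs, Adcy, Gucy or Pde with a digit, which gave 75 probes of 71 genes among 5376 probes of 4153 genes. They comprised 12 G alpha, 4 G beta and 9 G gamma genes, 14 RGS genes, 8 adenylyl cyclases, 9 guanylyl cyclases and 12 phosphodiesterases. The symbols also took in 3 genes of another kind: Adcyap1, which encodes the neuropeptide PACAP, its receptor gene Adcyap1r1, and Pde4dip, which encodes a protein that anchors a phosphodiesterase. Gna11, Gnai2, Adcy2 and Adcy5 had 2 probes each, which were kept apart. All 75 member probes had a value on at least 1 array.

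A G protein is a switch built of an alpha, a beta and a gamma subunit: a receptor loads the alpha subunit with GTP, the alpha and the joined beta and gamma subunits part, and each acts on its own effectors. Gs and Golf raise adenylyl cyclase activity, Gi, Go and Gz lower it, and Gq and G11 turn on phospholipase C, while RGS proteins speed the return to the resting state. Adenylyl cyclases make cyclic AMP, guanylyl cyclases make cyclic GMP and phosphodiesterases destroy both, and in spinal cord neurons and glia this machinery carries signals from transmitters, prostaglandins, chemokines and opioids.

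Of the 21 arrays, 3 belonged to each of 7 groups. Cord cultures kept for 4 hr were treated with CKIN, with MP or with acetaminophen (Acet), and 3 unpooled cultures given only PBS formed the group that the labels call Injured 4 hr. Freshly dissected cord, called Uninjured, and these 4 culture groups were hybridised against pooled PBS-treated cultures. Cultures treated with indomethacin (Indo), an inhibitor of both cyclooxygenases, were hybridised against pooled ETOH-treated cultures, and cultures treated with NS398, which prefers cyclooxygenase 2, against pooled DMSO-treated cultures. The labels give CKIN and MP as letters only, and they give no strain, age, dose, level of cord or number of animals per pool. They do not say whether the 3 samples of a group came from separate animals or cultures, so a p-value here speaks only of the spread among these samples, which may be technical. The reference pools were themselves cultures, so the Injured 4 hr arrays set like against like.

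The deposited values were log2 ratios, read as sample over pool from the order of the names in the sample titles. That direction is likely but not stated. The values did not share a common array median, and their normalization is not given in the sources used here. Array medians ran between -1.62 and 0.70 in the treatment groups. In the Injured 4 hr group they lay between -2.26 and -2.12, and in the Uninjured group between -4.12 and -3.09. Each array was therefore centred on its median, and every centred value below is a log2 ratio relative to the median probe of its array. An array held values for 3092 to 4916 probes, and 10 of the 15 treatment arrays, all CKIN and Indo arrays among them, lacked over 1000 values. The middle 50% of centred ratios spanned 2.15 to 2.26 log2 units on Uninjured arrays, against 0.87 to 0.96 on Injured 4 hr arrays. A second scale, called corrected, also removed the trend of each array against the mean Injured 4 hr ratio of a probe, used as a stand-in for brightness on an assumption, and the median of each source plate. Corrected Injured 4 hr values lie near 0 by construction, so their spread is understated there. Differences were tested with limma over all probes, and called at a Benjamini-Hochberg adjusted p under 0.05.

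The comparison of Injured 4 hr with Uninjured cord asks how the transcripts of cord kept 4 hr in culture differed from those of freshly dissected cord. Of 74 member probes tested, 1 was higher in Injured 4 hr samples, the RGS gene Rgs1, and 9 were lower: 4 G alpha genes (Gnas, Gnaq, Gnaz and Gnai1), Gnb2, the G gamma genes Gng3 and Gng2, Rgs5 and Adcyap1. No adenylyl cyclase, guanylyl cyclase or phosphodiesterase passed the test. Over all 4822 probes tested, 0.85% were called higher and 12.8% lower, and 9 of 74 members called lower is close to that background. The median member change was -0.31 on the log2 scale, beside -0.03 over all probes. The centred mean of 52 Gapdh spots was 2.15, 2.16 and 2.15 on Injured 4 hr arrays, against 3.94, 4.01 and 3.63 on Uninjured arrays. Gapdh was thus lower on the same scale as the called members, and the reason was not tested. On corrected ratios, where 2.41% of all probes were called higher and 4.85% lower, 2 members were higher and 3 lower, with a median of 0.05 beside 0.02 over all probes. Rgs1, Gng3 and Rgs5 were called on both scales. The values of Injured 4 hr and Uninjured samples did not overlap for 44 of the 74 members, most of them not called. The share over all probes was not counted, so a lack of overlap sets no called member apart. Of the 74 probes, 67 had a value on all 6 arrays; Gng10, Rgs12, Adcy10, Gucy1b2, Gucy2g, Pde1b and the 47C09 probe of Gna11 were fitted on 2 Uninjured arrays.

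The promoters of the 3 genes called on both scales are shown as sequence context, since cyclic AMP acts on transcription partly through the cAMP response element. Each runs 5′ to 3′ on the strand of the gene, 250 bases before to 50 after its start, from RefSeq on build GRCr8, and capitals mark the short form of that element, TGACG, on either strand. Rgs1 lies on the minus strand at chr13:58573138-58573437, Gng3 on the minus strand at chr1:215162669-215162968 and Rgs5 on the plus strand at chr13:84380827-84381126.
Rgs1: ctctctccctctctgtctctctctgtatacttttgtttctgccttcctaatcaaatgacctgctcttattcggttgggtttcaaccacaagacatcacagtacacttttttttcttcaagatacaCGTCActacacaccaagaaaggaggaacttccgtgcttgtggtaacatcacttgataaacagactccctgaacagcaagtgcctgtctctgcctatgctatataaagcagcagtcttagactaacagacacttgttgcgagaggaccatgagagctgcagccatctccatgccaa
Gng3: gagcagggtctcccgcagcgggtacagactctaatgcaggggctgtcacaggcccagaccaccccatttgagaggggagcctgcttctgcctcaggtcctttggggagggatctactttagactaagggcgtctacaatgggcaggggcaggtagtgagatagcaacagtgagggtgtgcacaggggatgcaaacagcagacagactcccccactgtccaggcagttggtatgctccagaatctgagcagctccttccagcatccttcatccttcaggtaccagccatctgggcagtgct
Rgs5: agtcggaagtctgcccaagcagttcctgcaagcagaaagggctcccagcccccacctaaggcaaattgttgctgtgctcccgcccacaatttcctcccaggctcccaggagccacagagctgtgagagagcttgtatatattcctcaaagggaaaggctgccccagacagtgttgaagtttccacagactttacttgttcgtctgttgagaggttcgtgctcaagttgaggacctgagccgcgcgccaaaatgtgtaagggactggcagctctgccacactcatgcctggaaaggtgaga
The Rgs1 promoter holds the short form once, read as CGTCA at position -125, and the letters are not in the Gng3 and Rgs5 windows. The table held 70 promoters for 57 of the 71 member genes, and 17 of the 70 (24.3%) had the short form, beside 7097 of all 33469 promoters (21.2%). The full palindrome TGACGTCA, which contains the short form on both strands, was in 1 member promoter (1.43%) and in 612 of all promoters (1.83%). Of 11 promoters belonging to 9 of the 10 called genes, 4 had the short form, those of Gnaq, Gnas, Gnb2 and Rgs1, and 0 had the palindrome. A match describes the letters and is not a binding site.

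Among the alpha subunits, Gnas encodes Gs, which stimulates adenylyl cyclase. Its centred ratio was 1.69, 1.56 and 1.38 on the Injured 4 hr arrays, against 3.09, 3.99 and 3.00 on the Uninjured arrays. Every Injured 4 hr value lay below every Uninjured value. The mean was 1.54 ± 0.16 in Injured 4 hr samples and 3.36 ± 0.55 in Uninjured samples (SD, n = 3 each), a change of -1.82 ± 0.51 (SE, limma adjusted p = 0.0208). The call did not hold on corrected ratios (-0.69, adjusted p = 0.235), and it ended without Injured 4 hr sample 1 (-1.89), 2 (-1.82) or 3 (-1.73) and without Uninjured sample 2 (-1.5).

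Gnaq encodes Gq, which activates phospholipase C. It stood at 0.69, 0.57 and 0.65 in Injured 4 hr samples, against 2.10, 2.35 and 2.07 in Uninjured samples. The values of each group lay close together and the groups did not overlap. The change was -1.54 ± 0.34 (SE, limma adjusted p = 0.00442) and the call held without any 1 of the 6 arrays, but not on corrected ratios (-0.50, adjusted p = 0.339).

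Gnaz encodes Gz, a member of the Gi family found in neurons and platelets. It measured 0.28, 0.10 and 0.30 in Injured 4 hr samples, against 1.91, 1.81 and 1.44 in Uninjured samples, again without overlap. The change was -1.49 ± 0.37 (SE, limma adjusted p = 0.01), and corrected ratios gave -0.84 (adjusted p = 0.194). Gnai1, which encodes an inhibitory alpha subunit, had 1.12, 0.47 and 1.40 in Injured 4 hr samples, against 2.19, 2.26 and 2.45 in Uninjured samples. Its groups did not overlap either, and the change was -1.30 ± 0.38 (SE, limma adjusted p = 0.0239). On corrected ratios Gnai1 was at -0.46 and not called, and the call on centred ratios ended without Injured 4 hr sample 1 (-1.37) or 2 (-1.04) and without Uninjured sample 2 (-1.32) or 3 (-1.23).

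The other 10 G alpha probes did not pass the test. The other inhibitory subunits had changes of -0.72 for Gnai3 and -0.67 for Gnao1, the abundant Go subunit of brain. The 2 Gnai2 probes went opposite ways, at -0.93 for the probe 29C10 and 0.73 for the probe 11G10, and neither was called. Gnal, which encodes Golf, stood at -0.76, and Gna12 at -0.30. The 2 probes of Gna11, the close relative of Gnaq, had 0.23 and 0.78, Gna15 of blood cells had 0.01, and Gnat3, known from taste cells, had -0.08. The 14 G alpha probes had a median change of -0.70 on centred and -0.09 on corrected ratios, where 0 were called and 3 had an unadjusted p under 0.05.

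All 4 G beta probes had negative changes, and 1 of them was called. Gnb2, a widely expressed subunit, had 1.28, 1.00 and 0.89 in Injured 4 hr samples, against 1.64, 2.96 and 2.53 in Uninjured samples. The groups did not overlap, though the lowest Uninjured value lay near the highest Injured 4 hr value. The change was -1.32 ± 0.39 (SE, limma adjusted p = 0.0284), and it was not called on corrected ratios (-0.46). The call on centred ratios ended without Injured 4 hr sample 1 (-1.43), 2 (-1.29) or 3 (-1.24) and without Uninjured sample 2 (-1.03) or 3 (-1.24). Gnb1, another widely expressed beta subunit, had 1.42, 1.39 and 1.78 in Injured 4 hr samples, against 2.57, 2.96 and 2.51 in Uninjured samples. These did not overlap, but the change of -1.16 missed the threshold (adjusted p = 0.0611). Gnb4 was at -0.74 and Gnb5, the beta subunit that pairs with a subfamily of RGS proteins, at -0.81. The G beta median was -0.98 on centred and -0.39 on corrected ratios.

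Gng3, a gamma subunit of neurons, had the lowest change of any member. It measured 0.89, 1.14 and 1.15 in Injured 4 hr samples, against 3.44, 4.15 and 2.91 in Uninjured samples. All Injured 4 hr values lay well below the lowest Uninjured value. The mean was 1.06 ± 0.15 in Injured 4 hr samples and 3.5 ± 0.62 in Uninjured samples (SD, n = 3 each). The change was -2.44 ± 0.42 (SE, limma adjusted p = 0.000624), it held without any 1 array, and corrected ratios gave -1.59 (adjusted p = 0.00506).

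Gng2, a gamma subunit that is abundant in brain, had 1.57, 0.80 and 1.14 in Injured 4 hr samples, against 2.36, 2.33 and 2.65 in Uninjured samples. The groups did not overlap, with a change of -1.28 ± 0.32 (SE, limma adjusted p = 0.0109) and -0.42 on corrected ratios, where it was not called. The call ended without Injured 4 hr sample 2 (-1.09) or Uninjured sample 3 (-1.17). Of the other gamma subunits, Gng5 was at -1.05, Gng11 at -1.06, Gng10 at -0.32 and Gng7, the striatal partner of Golf, at -0.33. Gng4 stood at -0.57, Gng8 at -0.42 and Gng12, which is found in glia, at 0.42, the only positive change of the 9. No probe of these 7 was called, and the G gamma median was -0.57 on centred and -0.12 on corrected ratios.

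**Figure D1:**
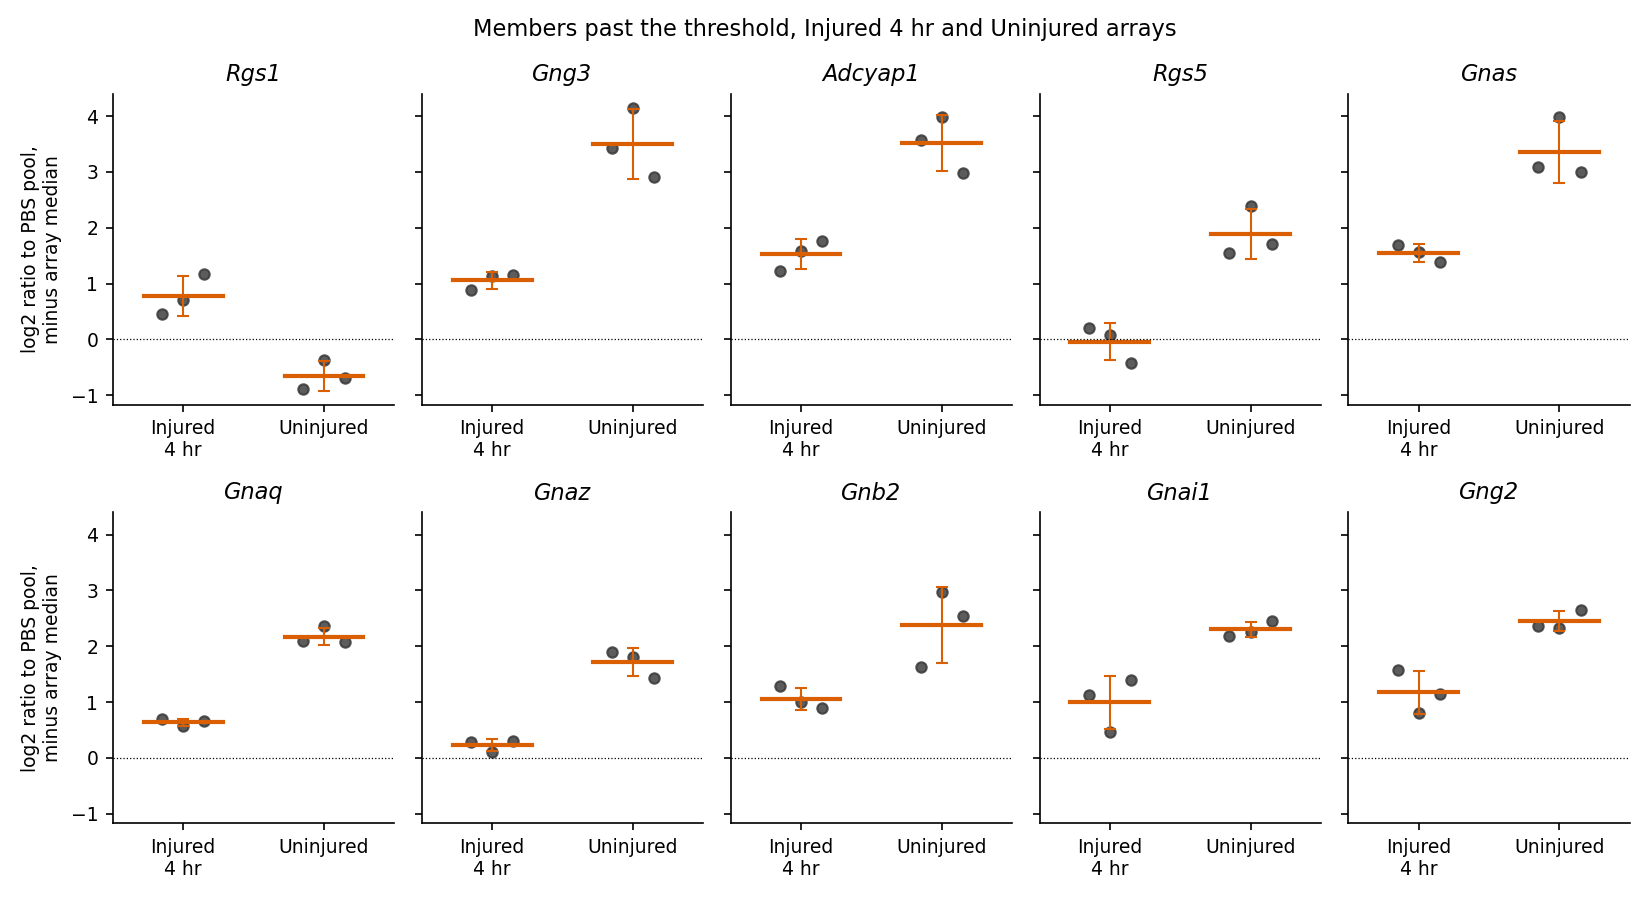
Centred log2 ratio to the PBS pool of each called member on the 3 Injured 4 hr and 3 Uninjured arrays; dots are arrays, bars are means and whiskers are SD. Rgs1 was higher on all Injured 4 hr arrays and the other 9 were lower, with no overlap between groups. Groups did not overlap for 44 of the 74 members tested, and the share over all probes was not counted.

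Rgs1, an RGS gene of lymphocytes and other immune cells, was the single member higher in Injured 4 hr samples. It measured 0.46, 0.70 and 1.17 there, against -0.90, -0.38 and -0.70 in Uninjured samples. The 3 Injured 4 hr values were all above the array median and the 3 Uninjured values all below it. The mean was 0.78 ± 0.36 in Injured 4 hr samples and -0.66 ± 0.26 in Uninjured samples (SD, n = 3 each). The change was 1.43 ± 0.30 (SE, limma adjusted p = 0.00329) and it held without any 1 array. On corrected ratios, values of -0.35, -0.03 and 0.38 in Injured 4 hr samples stood against -2.39, -2.05 and -2.23 in Uninjured samples, a change of 2.22 (adjusted p = 2.2e-05). Rgs1 was also called on the deposited ratios, which were not centred (2.94, limma adjusted p = 0.000963). The offset between array medians is left in on that scale, and 2403 of all probes were called, 99.4% of them higher. A higher call there therefore adds little. Quantile normalization between arrays ended the call (1.28, adjusted p = 0.106), as it did for all 10.

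Rgs5, which marks pericytes and smooth muscle of vessels, moved the other way. It had 0.21, 0.08 and -0.42 in Injured 4 hr samples, against 1.55, 2.39 and 1.72 in Uninjured samples, without overlap. The mean was -0.05 ± 0.33 in Injured 4 hr samples and 1.88 ± 0.45 in Uninjured samples (SD, n = 3 each). The change was -1.93 ± 0.54 (SE, limma adjusted p = 0.022), and corrected ratios gave -2.07 (adjusted p = 0.0257). The call ended without Injured 4 hr sample 2 (-1.99) or 3 (-1.74) and without Uninjured sample 2 (-1.68) or 3 (-2.01). None of the other 16 probes on the list of vessel and meningeal markers was called on centred ratios, where their median was -0.20, and corrected ratios called 2 of them higher. The mean of these 16 probes ran between 0.10 and 0.25 on Injured 4 hr arrays, against 0.24 to 0.46 on Uninjured arrays. In whole tissue, fewer cells of a type and less RNA per cell cannot be told apart, here and below.

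The other 11 RGS probes tested were not called. Rgs2, which acts on Gq and is induced by many stimuli, had -0.54, and Rgs4, a neuronal Gi and Gq regulator, had -0.39. Rgs10, known from microglia and neurons, stood at -0.17, Rgs19 at -0.93 and Rgs14 at 0.37. Rgs8 at 0.44 and Rgs9, best known from retina and striatum, at 0.58 were on the positive side. Rgs3 and Rgs12 were at -0.42 and -0.41, Rgs6 was at 0.25 and Rgs11 at 0.48. Rgs7 was measured on 1 array of the series and could not be tested. The 13 tested RGS probes had a median of -0.17 on centred and 0.16 on corrected ratios.

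None of 10 adenylyl cyclase probes was called on centred ratios by limma, and 1 had an unadjusted p under 0.05. Their changes lay between -1.02 and 0.63, with a median of -0.45. Adcy5, a cyclase that is inhibited by Gi and by calcium, gave the lowest value with its probe 52C07: -0.18, -0.16 and -0.18 in Injured 4 hr samples, against 0.47, 1.26 and 0.80 in Uninjured samples. These groups did not overlap, and the probe was called on corrected ratios (-1.27, adjusted p = 0.0178) though not on centred ones (-1.02, adjusted p = 0.106). Its other probe, 20A12, had -0.46. Adcy6, the closest relative of Adcy5, had -0.44, the olfactory cyclase Adcy3 had -0.66 and the calmodulin-stimulated Adcy8 had -0.48. Among the cyclases that beta and gamma subunits stimulate, the 2 Adcy2 probes had -0.57 and 0.27, Adcy4 had 0.35 and Adcy7 had 0.63. Adcy10, the soluble cyclase that bicarbonate activates, had 0.29.

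The 9 guanylyl cyclase probes had changes between -0.17 and 0.55 and a median of 0.19. No probe was called, and 0 had an unadjusted p under 0.05. The subunits of soluble guanylyl cyclase, the receptor for nitric oxide, had -0.08 for Gucy1a1, 0.33 for Gucy1a2, -0.17 for Gucy1b1 and 0.18 for Gucy1b2. Of the membrane forms, the intestinal guanylin receptor Gucy2c had 0.19, and Gucy2d, Gucy2e, Gucy2f and Gucy2g, of which several are known from sensory cells, had 0.55, 0.18, 0.54 and 0.54. Standard errors in this family ran between 0.35 and 0.67, so even changes well above these sizes could be missed here.

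The 12 phosphodiesterase probes gave no call and 0 unadjusted p under 0.05. Their changes ran between -0.77 and 0.67, with a median of 0.28 on centred and 0.21 on corrected ratios. Of the calmodulin-dependent forms, Pde1b had -0.77 and Pde1c had 0.65. The cAMP-specific Pde4 family, the target of rolipram, was mixed: -0.54 for Pde4a, -0.53 for Pde4b, 0.41 for Pde4c and 0.14 for Pde4d. Pde7a, also cAMP-specific, had 0.67. Pde3a and Pde3b, which cyclic GMP inhibits, had 0.59 and -0.18, and Pde2a, which cyclic GMP stimulates, had 0.09. Pde5a, specific for cyclic GMP, had 0.52 and the dual-substrate Pde10a had 0.46.

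Of the 3 genes taken in by their symbols alone, Adcyap1 was lower. It had 1.23, 1.58 and 1.76 in Injured 4 hr samples, against 3.58, 3.99 and 2.98 in Uninjured samples, without overlap. The change was -2.0 ± 0.52 (SE, limma adjusted p = 0.013), and it narrowly missed the threshold on corrected ratios (-1.18, adjusted p = 0.0518). The call ended without Injured 4 hr sample 1 (-1.85) or Uninjured sample 2 (-1.76). Adcyap1r1, the PACAP receptor, had -0.68 and was not called. Pde4dip had 1.5, 1.44 and 1.71 in Injured 4 hr samples, against 1.82, 1.71 and 1.72 in Uninjured samples. Its values were nearly the same in both groups on this scale (-0.20), and it was called higher on corrected ratios (0.73, adjusted p = 0.0463).

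**Figure D2:**
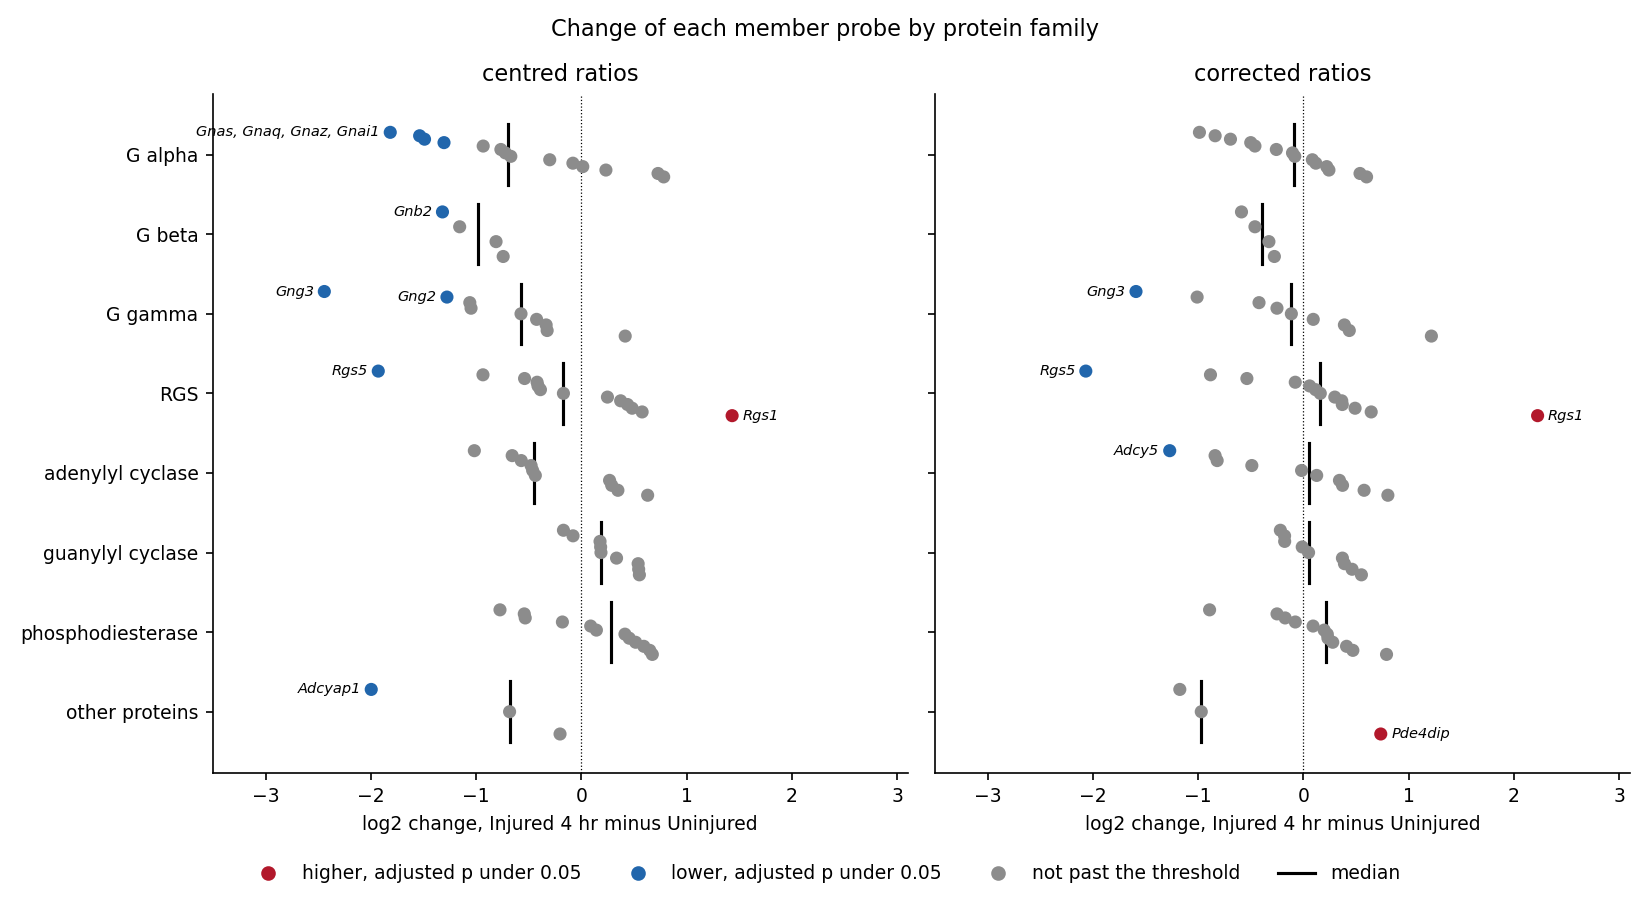
Log2 change, Injured 4 hr minus Uninjured, of every tested member probe by protein family, on centred ratios (left) and corrected ratios (right); dots are probes, bars are family medians, and coloured dots passed an adjusted p under 0.05. Gng3, Rgs5 and Rgs1 are coloured in both panels.

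The size of the change went with the ratio of a probe on the Injured 4 hr arrays. Among members with a mean Injured 4 hr ratio above 1, 5 of 14 were called lower, with a median of -0.99. With a ratio below 0.5, 2 of 53 were called lower and the median was 0.09. In between, 1 of 7 was called higher and 2 lower. All probes showed a like pattern, with medians of -0.92 above 1 and 0.22 below 0.5. Of all probes, 216 of 798 were called lower above 1, 223 of 3553 below 0.5 and 178 of 471 in between. Called higher in these bins were 11, 25 and 5 probes in that order. The Pearson correlation of change and ratio was -0.504 over the 74 members and -0.495 over all 4822 probes, given as a description since both quantities share the Injured 4 hr arrays. On corrected ratios it was 0.0451 over the members, near 0 by construction, since the trend against this ratio had been removed from them. Without centring, Gnaz (0.02), Gnb2 (0.19), Gnai1 (0.21) and Gng2 (0.23) had positive changes, because the mean array median was -2.20 in the Injured 4 hr group and -3.71 in the Uninjured group. With the spread of each array also scaled to be alike, Gnas (0.09), Gnb2 (0.02) and Gng2 (0.12) turned positive. Rgs1 was the 1 member called under that scaling, and Gng3 had -0.63 there.

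**Figure D3:**
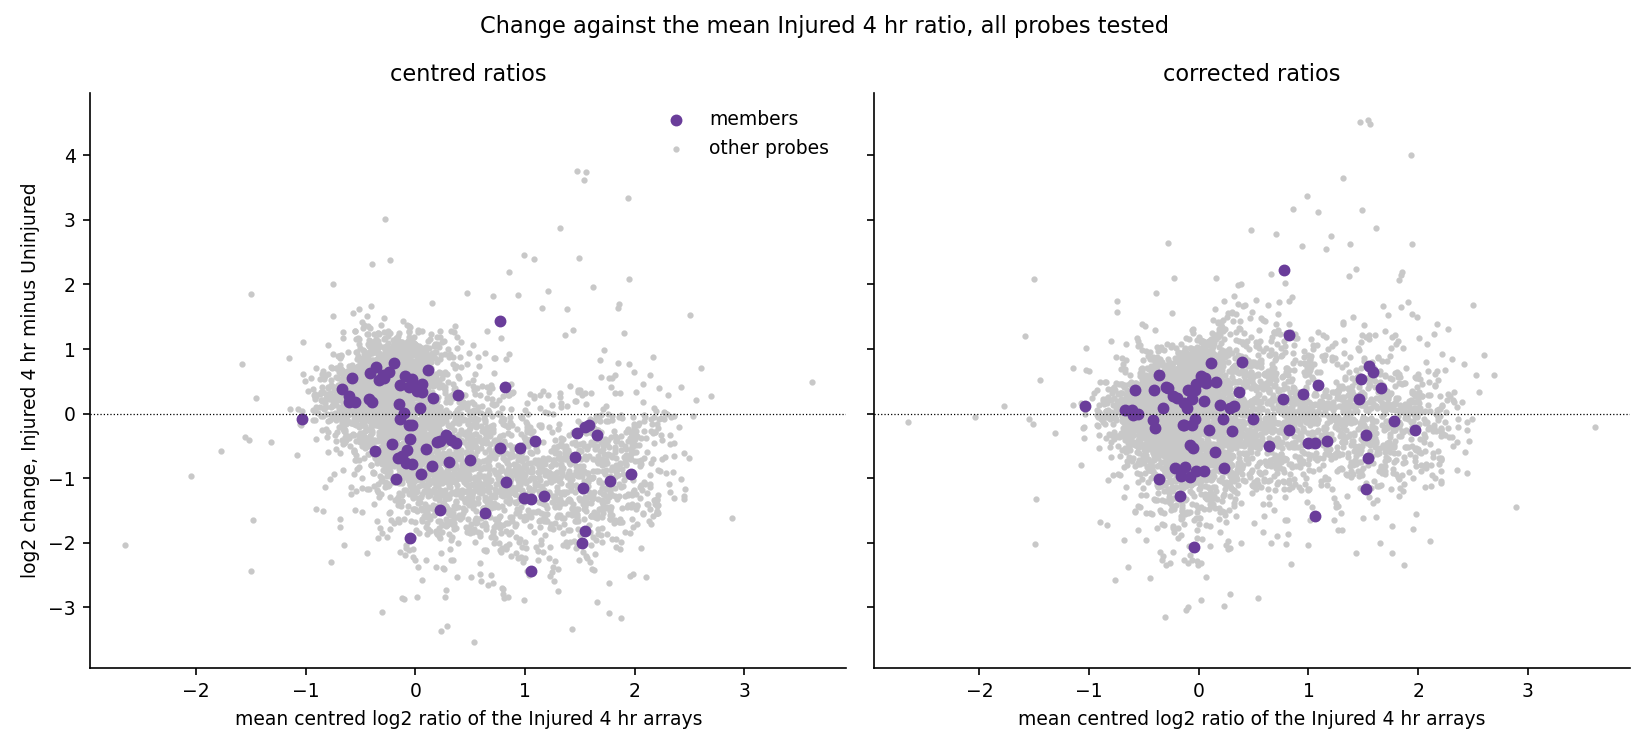
Log2 change, Injured 4 hr minus Uninjured, of all 4822 tested probes (grey) and 74 members (purple) against the mean centred log2 ratio of the Injured 4 hr arrays. Changes slope downward to the right on centred ratios (left) and lie level by construction on corrected ratios (right). The member with the highest change in both panels is Rgs1.

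Genes that act with the members were counted on lists. Of 28 probes for cAMP and cGMP effectors, 0 were called higher and 3 lower, with a median of -0.49: Akap12, which anchors protein kinase A (-1.67, limma adjusted p = 0.00806 for 1 of its 2 probes), the pacemaker channel Hcn2 (-1.64, adjusted p = 0.0101) and Prkar1a, a regulatory subunit of protein kinase A (-1.47, adjusted p = 0.0489). Of 21 probes for the CREB family and genes that cyclic AMP induces, 2 were higher and 1 lower, with a median of 0.38. Atf3, a stress-induced transcription factor, had 2.19 (adjusted p = 0.00072), the phosphatase gene Dusp1 had 1.62 (adjusted p = 0.00511), and Sst, the neuropeptide somatostatin, had -1.87 (adjusted p = 0.00627). On corrected ratios 4 of the 21 were higher and 1 lower.

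Among Gq effectors, 3 of 20 probes were lower and 0 higher (median -0.15), all protein kinase C genes: Prkcz at -1.52, Prkce at -1.34 and Prkcb at -1.29. No probe of 13 for receptor kinases and arrestins (median 0.18) or of 14 for cyclic GMP input (median 0.38) was called. Of 28 probes for Gs-coupled receptors, 1 was higher, the serotonin receptor Htr6 at 0.98, and the median was 0.50. Of 41 probes for Gi-coupled receptors, 3 were lower: the adenosine receptor Adora1 (-1.30), the GABA receptor Gabbr1 (-1.73) and the opioid receptor Oprd1 (-1.94). Their median was 0.15. Corrected ratios called 0 Gs-coupled receptors, and 1 Gi-coupled receptor in each direction.

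Markers of cell types moved between the same arrays. Of 15 neuronal probes, 0 were called higher and 11 lower (median -1.99), and on corrected ratios 8 were lower (median -1.36). Their mean ran between 1.56 and 1.62 on Injured 4 hr arrays, against 3.45 to 3.88 on Uninjured arrays. Of 10 astrocyte probes 6 were lower (median -1.81), and of 8 oligodendrocyte probes 1 was lower (median -1.07). The 7 microglia and macrophage probes gave no call on centred ratios (median 0.33) and 2 higher calls on corrected ratios (median 0.26). Their mean lay between 0.14 and 0.36 on Injured 4 hr arrays, against -0.13 to 0.09 on Uninjured arrays. The 5 blood and granulocyte probes gave no call (median 0.48), nor did the 3 of retina and taste (median 0.59). As ratios these values show no absolute level, so no marker could be called absent, and their part in the member changes was not tested.

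**Figure D4:**
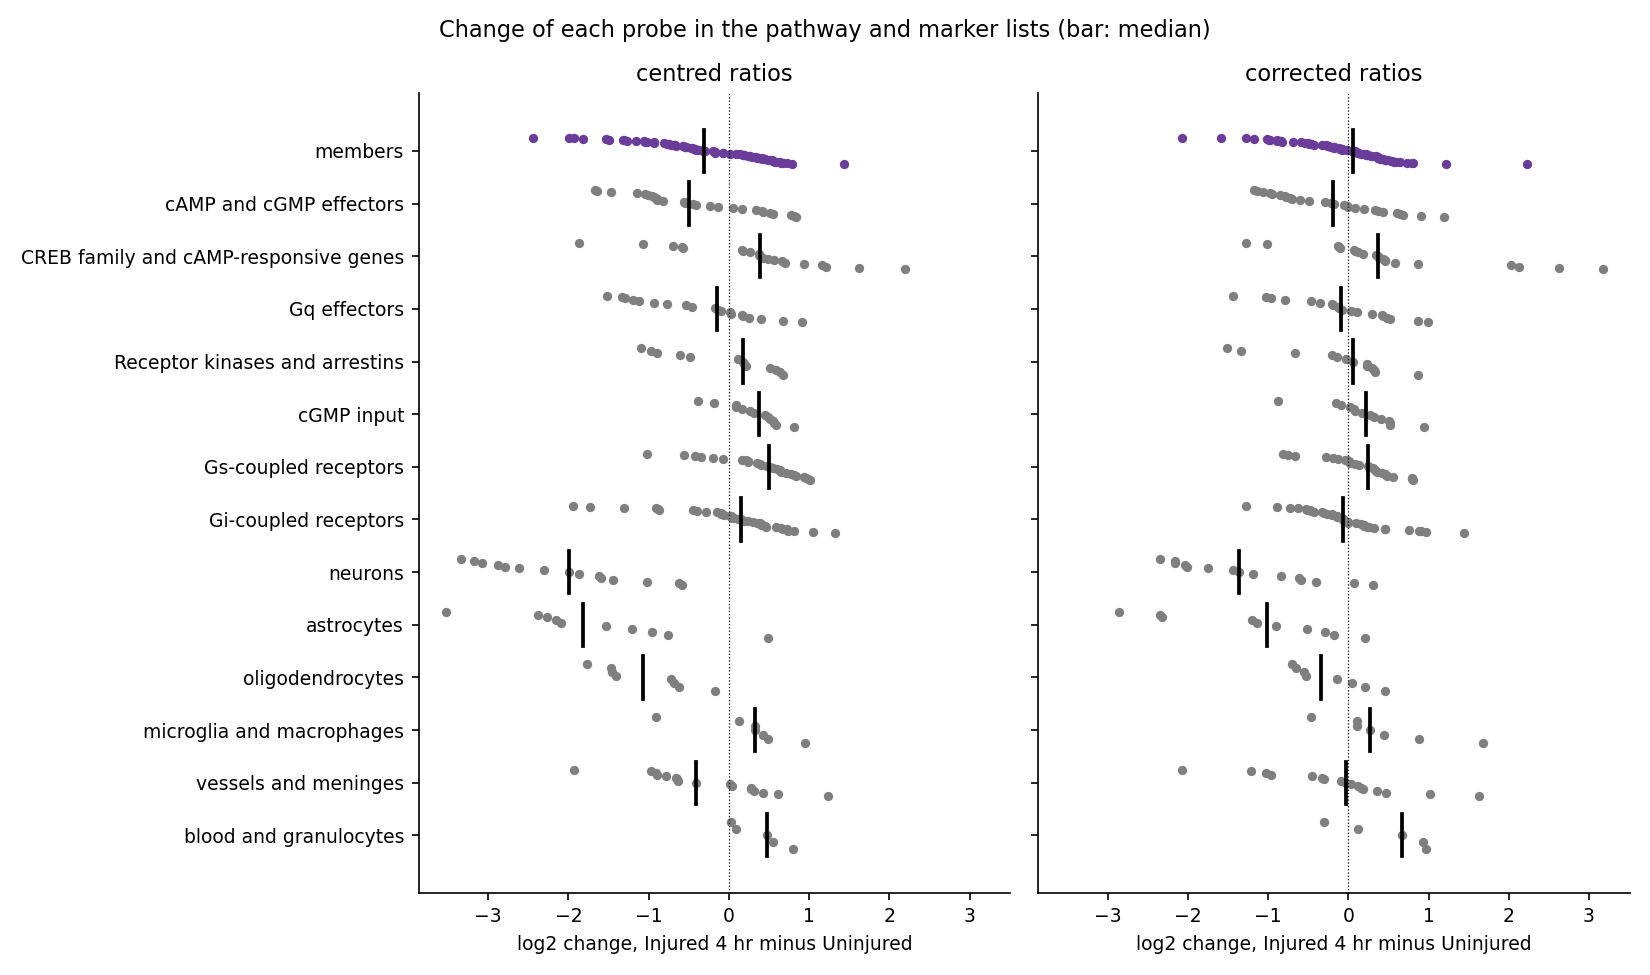
Log2 change, Injured 4 hr minus Uninjured, of each probe on the member, pathway and cell type lists, on centred ratios (left) and corrected ratios (right); dots are probes and bars are medians. Neuronal and astrocyte markers lie furthest to the left in both panels, and the CREB list reaches furthest to the right.

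CKIN, MP and Acet cultures were each set against Injured 4 hr cultures, and these comparisons share the 3 Injured 4 hr arrays. The arrays also differed in their values. Exact log2 ratios of small whole numbers made up 8.01% to 12.2% of values on the CKIN, MP and Acet arrays. On Injured 4 hr arrays they made up 0.98% to 1.17%. Treatment and array set cannot be told apart in these comparisons. In CKIN cultures, 8 of 63 member probes tested were lower and 0 higher: Gng10, Gng5, Gng2, Gnai2, Gnao1, Gnb1, Rgs10 and Gucy2f. G protein subunits made up 6 of the 8, and also much of what was tested, with 13 G alpha, 4 G beta and 9 G gamma probes. None of the 8 adenylyl cyclase or 9 phosphodiesterase probes tested was called. Over all 3736 probes tested, 1.31% were higher and 18.3% lower, a larger share than among the members. The median was -0.29 for members and -0.39 for all probes. The centred Gapdh mean was 0.86, 1.18 and 0.69 on CKIN arrays, against 2.15, 2.16 and 2.15 on Injured 4 hr arrays. On corrected ratios no member was called by limma, 5 had an unadjusted p under 0.05, and 0.616% of all probes were called. With the arrays that lacked many values against the others as a block, 0 members and 5 of all probes were called. Without the block, 732 of all probes were called. Every one of the 8 calls thus ended, those of Gng10 (-1.40, limma adjusted p = 0.214) and Gucy2f (-2.36, limma adjusted p = 0.128) included. All 3 CKIN arrays and 0 Injured 4 hr arrays lacked that many values, so the block coincided with the comparison. Block and treatment could be separated only through other groups, which held arrays of both kinds. The loss of the calls therefore cannot decide whether they depended on the missing values.

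Gng10 had the lowest change in CKIN cultures. It measured -0.30, -0.33 and -1.24 there, against 1.29, 1.82 and 1.87 in Injured 4 hr samples. The groups lay far apart, and the change was -2.28 ± 0.42 (SE, limma adjusted p = 0.00415). It held without any 1 array, and corrected ratios gave -0.90 without a call. Gucy2f, a guanylyl cyclase of photoreceptors, was measured on 2 CKIN arrays, at -2.51 and -1.83, against 0.06, -0.29 and 0.14 in Injured 4 hr samples. Its change was -2.14 ± 0.44 (SE, limma adjusted p = 0.00681), it also held without any 1 array, where a lone CKIN sample is assumed to vary like the other groups, and corrected ratios gave -1.59 (adjusted p = 0.0825).

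Gng5 had 0.17, 0.30 and -0.38 in CKIN cultures, against 1.97, 1.71 and 1.65 in Injured 4 hr samples, and did not overlap. Its change was -1.75 ± 0.45 (SE, limma adjusted p = 0.0161), and the call ended without CKIN sample 3 (-1.54) or Injured 4 hr sample 1 (-1.65). Rgs10 had 0.10, 0.38 and 0.08 in CKIN cultures, against 1.46, 1.28 and 2.02 in Injured 4 hr samples. For both genes the highest CKIN value lay well below the lowest Injured 4 hr value. The change of Rgs10 was -1.40 ± 0.40 (SE, limma adjusted p = 0.023), and the call ended without CKIN sample 1 (-1.36) or 3 (-1.34) and without Injured 4 hr sample 1 (-1.46) or 3 (-1.18).

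The other 4 called members had smaller or less stable changes. The 29C10 probe of Gnai2 had 0.39, 0.84 and 0.41 in CKIN cultures, against 1.93, 1.8 and 2.18 in Injured 4 hr samples (-1.42 ± 0.46, SE, limma adjusted p = 0.0355). Gnao1 had 0.51, 0.11 and -0.07 in CKIN cultures, against 0.99, 1.62 and 1.77 in Injured 4 hr samples (-1.28 ± 0.39, SE, limma adjusted p = 0.0288). Gnb1 had 0.67, 0.34 and 0.07 in CKIN cultures, against 1.42, 1.39 and 1.78 in Injured 4 hr samples (-1.17 ± 0.40, SE, limma adjusted p = 0.0474). Gng2 had 0.20, -0.08 and 0.27 in CKIN cultures, against 1.57, 0.80 and 1.14 in Injured 4 hr samples (-1.04 ± 0.32, SE, limma adjusted p = 0.0295). No group pair overlapped, as for 26 of the 63 members tested, and the share over all probes was not counted. The calls did not hold with fewer arrays, while the changes stayed of like size. That of Gnai2 ended without CKIN sample 1 (-1.34) or 3 (-1.35) and without Injured 4 hr sample 1 (-1.44), 2 (-1.51) or 3 (-1.32). That of Gnao1 ended without CKIN sample 2 (-1.24) or 3 (-1.15) and without Injured 4 hr sample 2 (-1.19) or 3 (-1.12). Gnb1 lost its call without any 1 of the 6 arrays, at changes between -1.32 and -1.02. Gng2 lost it without any but Injured 4 hr sample 2, at changes between -1.11 and -0.84. Corrected ratios turned Gnai2 (0.21) and Gng2 (0.07) positive, and deposited ratios turned Gng5, Gnai2, Rgs10, Gnao1, Gnb1 and Gng2 positive, between 0.18 and 0.89. Against the PBS pool, the CKIN ratios of these 6 were positive as well, at 0.03 for Gng5, 0.55 for Gnai2, 0.19 for Rgs10, 0.18 for Gnao1, 0.36 for Gnb1 and 0.13 for Gng2.

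On the other lists, counts of lower probes in CKIN cultures on centred ratios stand beside the 18.3% of all probes lower and their median of -0.39. Of 17 probes of the CREB list 7 were lower (median -0.53), of 24 effector probes 4 were lower (median -0.18), of 21 Gs-coupled receptor probes 4 were lower (median -0.53) and of 29 Gi-coupled receptor probes 3 were lower (median -0.12). Of 8 oligodendrocyte markers 5 were lower (median -1.78), with array means between -0.42 and 0.32 in CKIN cultures, against 1.76 to 1.87 in Injured 4 hr samples. Of 15 neuronal and 10 astrocyte markers, 2 and 4 were lower. Corrected ratios called 0 probes on any of these lists. The 3 CKIN arrays were among those that lacked the most values, and the part of this and of the markers in the member changes was not tested.

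No member was called in MP or in Acet cultures by limma. In MP cultures 72 member probes were tested and 9 had an unadjusted p under 0.05, with a median of -0.16 beside -0.27 over all probes, of which 2.03% were called in either direction. The smallest p was that of Gng2, with a change of -1.19 ± 0.32 (SE, limma adjusted p = 0.0554). Its groups did not overlap, as for 18 of the 72 members, and the share over all probes was not counted, here or for Acet below. The G gamma family had the lowest median in MP cultures, -0.73 over 9 probes. Without MP sample 2, 6 members were called lower. Calls over all probes then rose from 89 to 582, of which 5.33% were higher. In Acet cultures 72 member probes were tested and 4 had an unadjusted p under 0.05, with a median of -0.11 beside -0.21 over all probes, of which 1.18% were called. The smallest p there was that of Pde1b, with -1.20 ± 0.37 (SE, limma adjusted p = 0.108) and no overlap, as for 13 of the 72 members. Whether CKIN differed from the other treatments was tested directly, in comparisons chosen after seeing the data. None of 62 member probes was called between CKIN and MP, where 0.0% of all probes were called. None of 63 was called between CKIN and Acet, where 0.08% of all probes were. An unadjusted p under 0.05 was found for 8 members between CKIN and MP and 13 between CKIN and Acet. The share of all probes at that unadjusted threshold is not given here, so these counts have no background beside them. In the comparison of CKIN with Acet, Gnai1 came nearest, with -1.42 ± 0.38 (SE, limma adjusted p = 0.0866).

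Indo and NS398 cultures were set against their own vehicle pools, so a centred ratio of 0 means no difference from the pool at the array median, and the spread between vehicle cultures is left out. How often a member is called against a pool of its own kind can be seen from the Injured 4 hr arrays, PBS cultures against the PBS pool. There 17 of 74 members were called higher and 1 lower, and 21.7% of all probes were called in either direction. Among them were Gnai2 at 1.97, Gng5 at 1.78, Gng10 at 1.66 and Rgs10 at 1.59.

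In Indo cultures 4 of 62 member probes were lower and 0 higher, beside 2.39% of all probes higher and 10.8% lower, and the median member change was 0.00 beside 0.01. Pde1c was the lowest, with -1.70, -1.40 and -4.82 on the 3 arrays. All 3 values were below 0, and the change was -2.64 ± 0.48 (SE, limma adjusted p = 0.00166), or -1.55 without Indo sample 3. Pde1b, the other calmodulin-dependent form, had -1.19, -0.47 and -1.10 (-0.92 ± 0.26, SE, limma adjusted p = 0.0214). The 47C09 probe of Gna11 had -1.83, -0.79 and -1.29 (-1.31 ± 0.33, SE, limma adjusted p = 0.00846), and the 52E09 probe of Adcy2 had -1.79, -0.72 and -0.61 (-1.04 ± 0.27, SE, limma adjusted p = 0.0117). These 3 calls ended without Indo sample 1 (-0.78, -1.04 and -0.66 in that order), and that of Pde1b also without Indo sample 3 (-0.83). The split of member calls turned with the processing: with the arrays that lacked many values against the others as a block, 7 were higher and 1 lower, with 63.5% of all calls higher, and quantile normalisation gave 5 higher and 4 lower. On corrected ratios, with 9.49% of all probes called, Pde1c (-2.26) and Gng10 (-0.78) were lower and Pde2a (1.23) higher.

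In NS398 cultures 6 of 68 member probes were higher and 4 lower, beside 10.2% of all probes higher and 11.4% lower, and the median member change was -0.01 beside -0.04. Gng5 was the highest, with 0.58, 1.68 and 2.30 on the 3 arrays, a change of 1.52 ± 0.32 (SE, limma adjusted p = 0.00218). The 29C10 probe of Gnai2 had 0.34, 1.60 and 2.21 (1.38 ± 0.32, SE, limma adjusted p = 0.00468). Both were lowest on NS398 sample 1, the array of this group that lacked the most values, and so were the other 4 members called higher. Rgs2 had 0.61, 1.21 and 1.32 (1.05 ± 0.26, SE, limma adjusted p = 0.00647). Rgs10 had 0.51, 1.33 and 1.24 (1.03 ± 0.28, SE, limma adjusted p = 0.0139). Pde4dip had 0.11, 1.14 and 1.42 (0.89 ± 0.27, SE, limma adjusted p = 0.0231). Pde2a had the smallest change of the 6, with 0.27, 0.79 and 1.01 (0.69 ± 0.23, SE, limma adjusted p = 0.0353), and turned negative on deposited ratios (-0.19).

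The 4 members lower in NS398 cultures were a guanylyl cyclase, a phosphodiesterase, an adenylyl cyclase and an alpha subunit. Gucy2f had -1.20, -1.45 and -0.63 (-1.09 ± 0.28, SE, limma adjusted p = 0.0108). Pde1b had -1.0, -1.43 and -0.43 (-0.95 ± 0.26, SE, limma adjusted p = 0.0134). The 52E09 probe of Adcy2 had -1.45, -0.54 and -0.67 (-0.89 ± 0.27, SE, limma adjusted p = 0.0243). The 47C09 probe of Gna11 (-1.01 ± 0.33, SE, limma adjusted p = 0.0303) was above 0 on 1 array, at 0.02, and is named after its values were seen. Corrected ratios called 13.1% of all probes and 4 members: Pde2a (1.03), Adcy8 (1.07, on 2 arrays) and Adcy4 (0.70) higher, and Pde10a (-0.61) lower. Pde2a was the 1 member called on both scales, and a fit on the NS398 arrays alone called none. Without NS398 sample 2, the calls of Rgs2 (0.97), Rgs10 (0.87), Pde4dip (0.76), Pde2a (0.64), Gucy2f (-0.92) and Pde1b (-0.71) ended. Without sample 3, those of Gnai2 (0.97), Rgs2 (0.91), Rgs10 (0.92), Pde4dip (0.62), Pde2a (0.53) and Adcy2 (-1.0) ended, and without sample 1 that of Adcy2 (-0.60), while that of Gng5 held without any 1 array. Of 19 probes on the CREB list, 7 were higher and 1 lower (median 0.46 on centred and 0.42 on corrected ratios), and of 28 Gs-coupled receptor probes 1 was higher and 8 lower (median -0.48). Of 15 vessel and meningeal markers other than Rgs5, 4 were higher and 1 lower. The difference between NS398 and Indo, chosen after seeing the data, called none of 59 members by limma, beside 0.435% of all probes called. Of these members 3 had an unadjusted p under 0.05, a count given without the share of all probes.

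**Figure D5:**
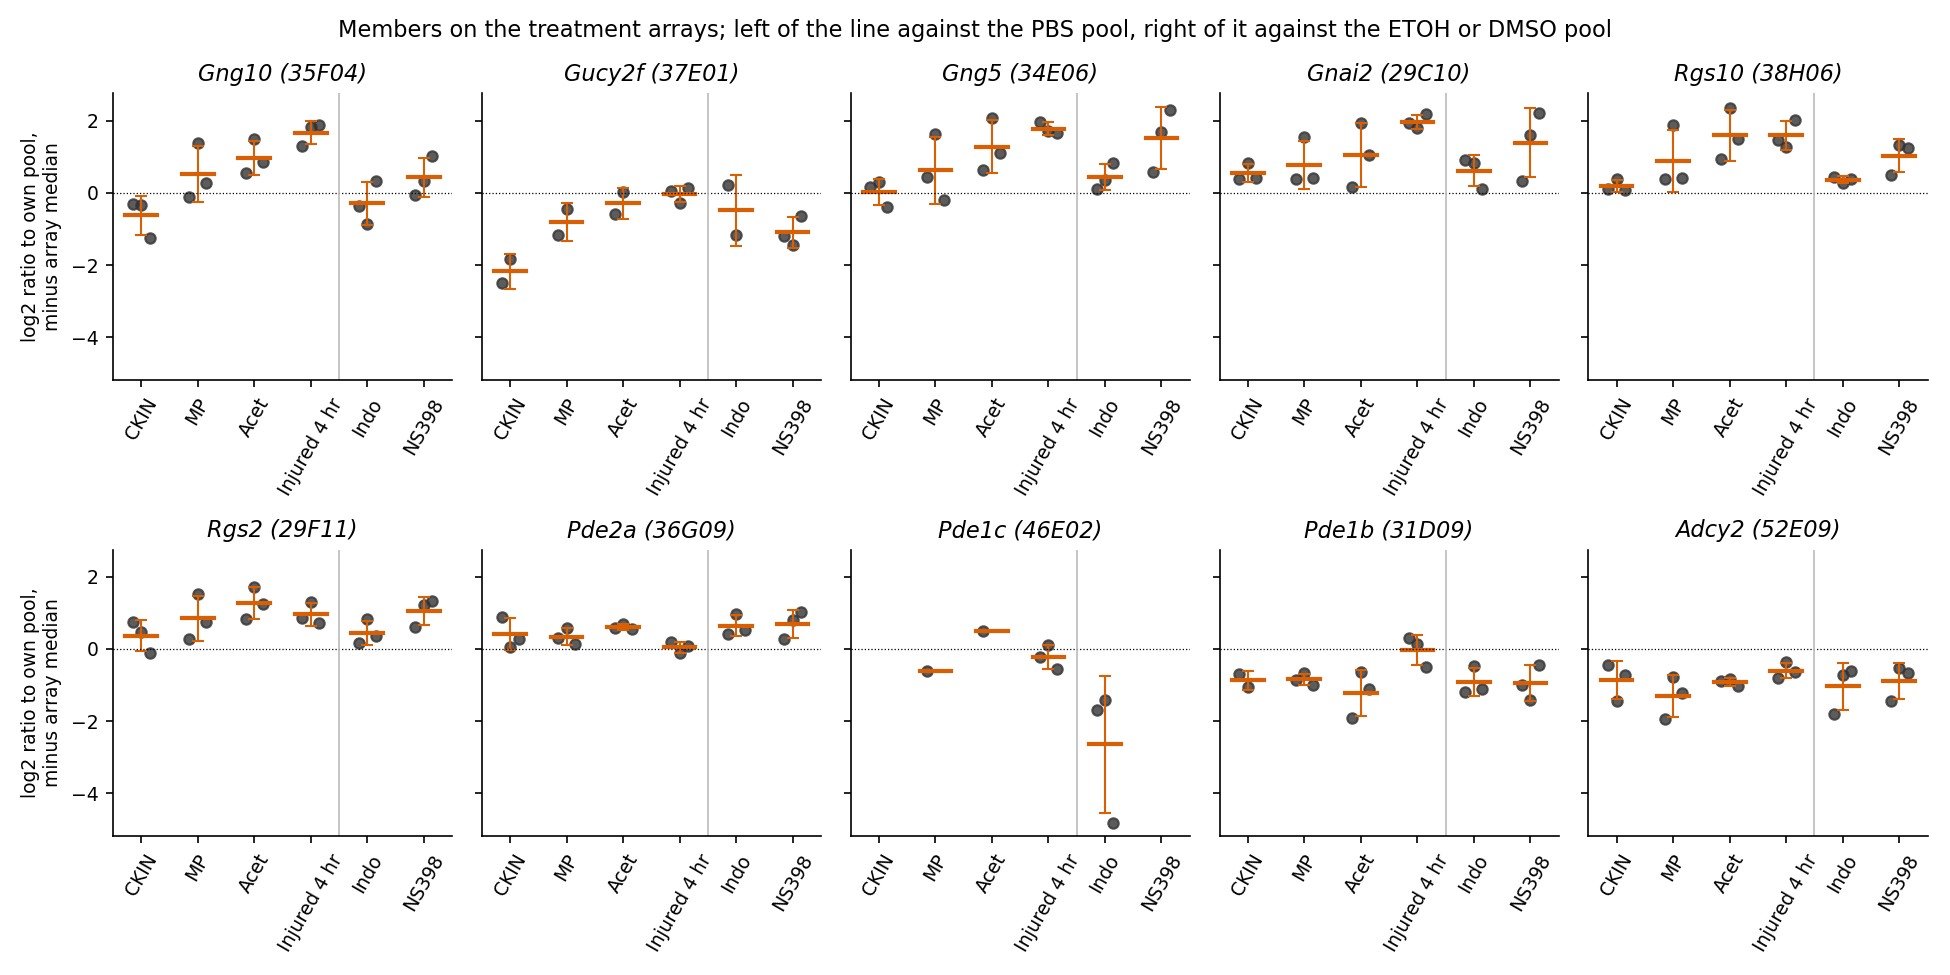
Centred log2 ratio to its own pool of 10 members called in a treatment comparison, on CKIN, MP, Acet and Injured 4 hr arrays (PBS pool, left of the line) and on Indo (ETOH pool) and NS398 arrays (DMSO pool, right of the line); dots are arrays, bars means and whiskers SD. Gng10 and Gng5 are lower on the CKIN arrays than on the Injured 4 hr arrays, and Pde1b (14 measured arrays) and the 52E09 probe of Adcy2 (15) lie below 0 on every measured treatment array.

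Of 48 members with values on at least 14 of the 15 treatment arrays, 6 (12.5%) kept 1 sign on every measured array, against 451 of 2640 (17.1%) of all probes. The 52E09 probe of Adcy2 was below 0 on 15 of 15 arrays, with a median of -0.83, and Pde1b on 14 of 14, with a median of -1.0. The 47C09 probe of Gna11 was below 0 on 14 of 15, with a median of -1.23. On the positive side, the 29C10 probe of Gnai2, Pde2a, Pde4dip and Rgs10 were above 0 on 15 of 15. On the Injured 4 hr arrays, which had no drug, the mean was -0.60 for that Adcy2 probe, -0.03 for Pde1b, -0.20 for that Gna11 probe, 1.97 for that Gnai2 probe, 0.04 for Pde2a, 1.55 for Pde4dip and 1.59 for Rgs10.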

How the data were processed

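Total RNA of rat spinal cord was compared with a reference pool on 21 spotted 2-colour arrays. The authors deposited 1 log2 ratio per spot in the value table; its direction is likely sample over pool, per the labels' title order, and background correction, normalization and software are, in the sources used here, not given. Probes were named from the platform annotation: 4423 of 5376 had 1 symbol and 2 had several. The 52 Gapdh spots were averaged. Ratios were centred on each array's median and fitted with limma 3.58.1 in R 4.3.3, with 1 coefficient per group over all arrays. Tested were probes with values on at least 2 arrays in both compared groups, with Benjamini-Hochberg adjustment over all probes tested and a threshold of 0.05. Corrected ratios are residuals of a loess curve (span 0.4) on the mean Injured 4 hr ratio, then centred by source plate (plates of 20 or more probes).

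Named were called probes with 1 sign on every array of their group, at most 20 per comparison, and a panel of members. The members, panel and lists were chosen with earlier results of these data known. The lists were cAMP and cGMP effectors, the CREB family and cAMP-responsive genes, Gq effectors, receptor kinases and arrestins, cGMP input, Gs-coupled and Gi-coupled receptors, and markers of neurons, astrocytes, oligodendrocytes, microglia and macrophages, blood, vessels and meninges, and retina and taste. The procedure was tested on simulated data. The number of arrays, 3 per group, limits the precision. Alternatives were other scalings, other probe filters, blocks, pools and omitted arrays.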

Additional observations from a re-analysis of the deposited data

How the results depend on the processing

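Scaling decided most member counts. Between Injured 4 hr and Uninjured cord, 10 members were called on centred ratios, 5 on corrected, 30 on deposited, 0 after quantile and 1 after scale normalization, 21 when only the compared groups were fitted, and 5 to 10 without 1 array. All probes called numbered 658 on centred, 350 on corrected, 2403 on deposited, 20 on quantile, 29 on scaled ratios and 1809 with the compared groups only, and the share called higher was 6.23%, 33.1%, 99.4%, 70.0%, 89.7% and 29.3% in that order. Changes that reversed on deposited ratios were Gnaz (0.021), Gnb2 (0.19), Gnai1 (0.21), Gng2 (0.23), Gna12 (1.21) and Rgs10 (1.34), and on scaled ratios Gnas (0.093), Gnb2 (0.022) and Gng2 (0.12). For CKIN against Injured 4 hr the count of 8 members became 0 on corrected, 39 on deposited, 5 on quantile and 18 on scaled ratios, 15 with the compared groups only, 0 with the set of arrays as a block, 4 against the PBS pool and 2 to 5 without 1 array. All probes called there were 732 on centred, 23 on corrected, 2170 on deposited and 1232 on scaled ratios, 1164 with the compared groups only and 5 with the array block. That block coincided with the comparison of CKIN and Injured 4 hr, so its counts there cannot decide whether the calls depended on missing values. The share called higher was 6.69% on centred, 34.8% on corrected and 24.3% on quantile ratios, and on deposited ratios each of the calls was higher. Of the 4 CKIN members called against the PBS pool, 1 was among the 8 called on centred ratios. All probes called for CKIN against that pool were 514, 24.3% of them higher. Reversed in CKIN were Gng5 (0.18 deposited, 0.028 against the pool), Gnai2 (0.21 corrected, 0.51 deposited, 0.55 pool), Rgs10 (0.53 deposited, 0.19 pool), Gnao1 (0.66 deposited, 0.18 pool), Gnb1 (0.77 deposited, 0.36 pool) and Gng2 (0.069 corrected, 0.89 deposited, 0.13 pool). The count of 0 for MP became 55 on deposited and 7 on scaled ratios, 1 with probes on all arrays, 18 against the PBS pool and 0 to 6 without 1 array. The count of 0 for Acet became 64 on deposited and 2 on scaled ratios and 23 against the PBS pool, and stayed 0 to 0 without 1 array. For Indo the count of 4 became 2 on deposited and 9 on quantile ratios, 1 with its own arrays only, 8 with the array block and 1 to 5 without 1 array. For NS398 the count of 10 became 4 on corrected and 26 on deposited ratios, 0 with its own arrays only and 4 to 11 without 1 array, and Pde2a reversed on deposited ratios (-0.19). CKIN against Acet gave 3 on quantile ratios, and the alternatives gave 0 for CKIN against MP and NS398 against Indo. Over all probes MP gave 89 on centred, 46 on corrected, 3161 on deposited and 625 on scaled ratios, Acet 56, 42, 3364 and 492, Indo 501, 359, 274 and 748, and NS398 971, 584, 1956 and 1033 in the same order. Against the PBS pool, all probes called were 1367 for MP and 1425 for Acet. The share called higher was 18.2% on centred, 34.3% on corrected and 52.3% on quantile ratios for Indo, and 47.3% on centred and 2.66% on deposited ratios for NS398. A replicate block called 10 members for Injured 4 hr, 7 for CKIN, 0 for MP and Acet, 4 for Indo and 11 for NS398; same-numbered arrays correlated between -0.0827 and 0.051, so the numbers were not taken as pairs. The deposited ratios were tried after seeing the data. Causes were not tested beyond what each scaling does by construction. Signal over background is not among the values used, so the limit it sets is unknown.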
